A study of Mus musculus with 16 samples.

Results

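The aryl hydrocarbon receptor pathway was followed here through 5 genes: Ahr, Arnt, Cyp1a1, Cyp1a2 and Tiparp. They were taken by gene name, from a set proposed with earlier results of these data known, and all 5 were found among the 25006 genes of the count table. All 5 passed the filter on low counts, which left 13180 genes to test. Cyp1a2 fell and Tiparp rose in the livers of antibiotic-treated mice given a chow slurry, compared with mice on control water given the same slurry. The Cyp1a2 call held in each of 8 fits without 1 library, but not within either subset split by counts resembling ribosomal RNA. The Tiparp call (adjusted p = 0.046 by edgeR's quasi-likelihood test) was lost in 5 of 8 fits without 1 library, and its groups overlapped. By edgeR's quasi-likelihood test on all 16 libraries, Cyp1a1 and the receptor gene Ahr passed in no contrast, and no member passed for the meal in either kind of water. With DESeq2, Tiparp passed for the meal in antibiotic water, and Ahr passed in some fits to fewer libraries.

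The samples were livers of C57BL/6 mice, taken 4 h after a single gavage of a slurry of chow or of fast food. Mice had been assigned at random to control or antibiotic drinking water, which gave 4 groups of 4 libraries: chow with control water, fast food with control water, chow with antibiotic water and fast food with antibiotic water. The antibiotics, the length of the treatment, and the age and sex of the mice are not named in the sources used here. Whether the replicates of a group came from separate mice is not stated in the labels, so p-values may measure only the spread between samples. Polyadenylated RNA was sequenced as single reads of 50 bases, with 8954378 to 18954655 reads counted to genes per library. Hepatocyte markers (Alb, Apoa1, Ttr, Serpina1a, Cyp2e1) summed to between 69782 and 192511 CPM (reads scaled to a common library total) in every library. The intestinal marker Cdh17 and the pancreatic markers Prss2 and Cpa1 were at most 0.175 CPM in any library, and the intestinal marker Vil1 at most 0.321 CPM. The pancreatic marker Cela1 was at 4.58 to 8.63 CPM in every library and passed in no contrast. Fabp2, which liver also expresses, reached 168.9 CPM in chow with control water. With antibiotic water after chow Fabp2 was called lower, from 131 ± 33.8 to 27.3 ± 11.3 CPM (mean and SD). Fast food in antibiotic water called it higher, at 103 ± 55.6 CPM. Transcripts resembling ribosomal RNA (Lars2, Mir6236, Gm20594, Mir6240) took under 1% of counts in 9 libraries. The remaining 7 had 2.45 to 8.42%. All 4 libraries of fast food with control water were on the low side. Chow with control water and chow with antibiotic water each had 2 libraries on either side, and fast food with antibiotic water had 1 low and 3 high. Chow with control water replicate 2, chow with antibiotic water replicate 4 and fast food with antibiotic water replicate 2 had the highest acute phase transcript levels of their groups.

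The aryl hydrocarbon receptor is a ligand-activated transcription factor of the basic helix-loop-helix PAS family, held in the cytosol by a chaperone complex until a ligand binds. It then enters the nucleus, pairs with ARNT and binds DNA elements with the core letters GCGTG near its target genes. Ligands include environmental hydrocarbons, dietary indoles and tryptophan derivatives made by the host and by gut bacteria. In liver the pathway is best known for inducing the cytochrome P450 enzymes CYP1A1 and CYP1A2, and for TIPARP, an ADP-ribosyltransferase that is itself a target and restrains the receptor.

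By the GENCODE M21 annotation of GRCm38, Ahr (ENSMUSG00000019256) lies at chr12:35497974-35535038 on the minus strand and Arnt (ENSMUSG00000015522) at chr3:95434388-95497240 on the plus strand. Tiparp (ENSMUSG00000034640) lies at chr3:65528410-65555518 on the plus strand. Cyp1a1 (ENSMUSG00000032315) spans chr9:57687928-57703824 on the plus strand and Cyp1a2 (ENSMUSG00000032310) spans chr9:57676937-57683703 on the minus strand. All 5 are protein-coding. The Cyp1a1 and Cyp1a2 start sites face away from each other, 13958 bases apart by RefSeq, with 0 genes lying wholly between them.

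RefSeq promoters (build GRCm38.p6) were matched for 4 of the 5 members. They are shown because the receptor complex acts through short elements in such regions, and because Cyp1a1 and Cyp1a2 are neighbours with unlike levels in these livers. Each window is the 250 bases before the start site, written in the gene's direction, with capitals marking GCGTG or its reverse complement CACGC. The windows are chr3:95434140-95434389 (plus strand) for Arnt, chr9:57697363-57697612 (plus strand) for Cyp1a1, chr9:57683656-57683905 (minus strand) for Cyp1a2 and chr3:65528197-65528446 (plus strand) for Tiparp.
Arnt: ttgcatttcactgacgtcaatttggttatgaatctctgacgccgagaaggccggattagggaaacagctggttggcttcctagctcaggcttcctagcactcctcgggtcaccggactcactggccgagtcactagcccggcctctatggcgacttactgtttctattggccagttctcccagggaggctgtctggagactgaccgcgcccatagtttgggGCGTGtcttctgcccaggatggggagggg
Cyp1a1: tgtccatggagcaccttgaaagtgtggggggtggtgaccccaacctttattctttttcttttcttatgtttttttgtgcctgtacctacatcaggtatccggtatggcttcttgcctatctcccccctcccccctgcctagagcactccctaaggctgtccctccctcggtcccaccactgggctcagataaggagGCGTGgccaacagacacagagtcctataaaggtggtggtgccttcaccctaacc
Cyp1a2: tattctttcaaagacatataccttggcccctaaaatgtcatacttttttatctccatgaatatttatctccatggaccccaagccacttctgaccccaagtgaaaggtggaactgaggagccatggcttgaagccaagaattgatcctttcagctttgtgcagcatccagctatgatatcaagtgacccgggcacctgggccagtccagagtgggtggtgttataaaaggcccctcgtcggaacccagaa
Tiparp: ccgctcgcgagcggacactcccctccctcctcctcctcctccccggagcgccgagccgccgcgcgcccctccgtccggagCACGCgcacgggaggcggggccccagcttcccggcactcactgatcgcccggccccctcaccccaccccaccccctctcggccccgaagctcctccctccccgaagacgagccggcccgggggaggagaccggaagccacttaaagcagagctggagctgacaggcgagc
GCGTG occurred 1 time each in the windows of Arnt, Cyp1a1 and Tiparp and 0 times in that of Cyp1a2. It lay 29 to 25 bases before the start in Arnt and 54 to 50 bases before it in Cyp1a1, both on the gene's strand, and 170 to 166 bases before it on the opposite strand in Tiparp. Among all 32851 promoters of the same length, 28.2% held GCGTG on at least 1 strand. The longer form TNGCGTG, which contains GCGTG, was in none of the 4 member windows and in 4.1% of all promoters.

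The members differed widely in level. CPM values, scaled with TMM factors, were divided by exon length so that genes could be compared. In chow with control water, Cyp1a2 was at 95.7 ± 15.0 CPM per kb (SD, n = 4), Ahr at 8.77 ± 2.21, Arnt at 4.99 ± 1.33, Tiparp at 4.65 ± 3.62 and Cyp1a1 at 0.323 ± 0.157. The per-kb levels of Ahr and Arnt overlapped slightly in that group (6.47 to 11.5 against 3.90 to 6.72), and those of Arnt and Tiparp overlapped more (2.56 to 10.1 for Tiparp). This order from Cyp1a2 down to Cyp1a1 was found in 11 libraries. Tiparp stood above Arnt in 3 more libraries and above both Ahr and Arnt in 1. In replicate 4 of chow with antibiotic water Tiparp came first, at 55.0 CPM per kb against 36.9 for Cyp1a2. Cyp1a1 was the lowest member in all 16 libraries, and the per-kb ratio of Cyp1a2 to Cyp1a1 ranged from 54.8 to 724.

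**Figure D1:**
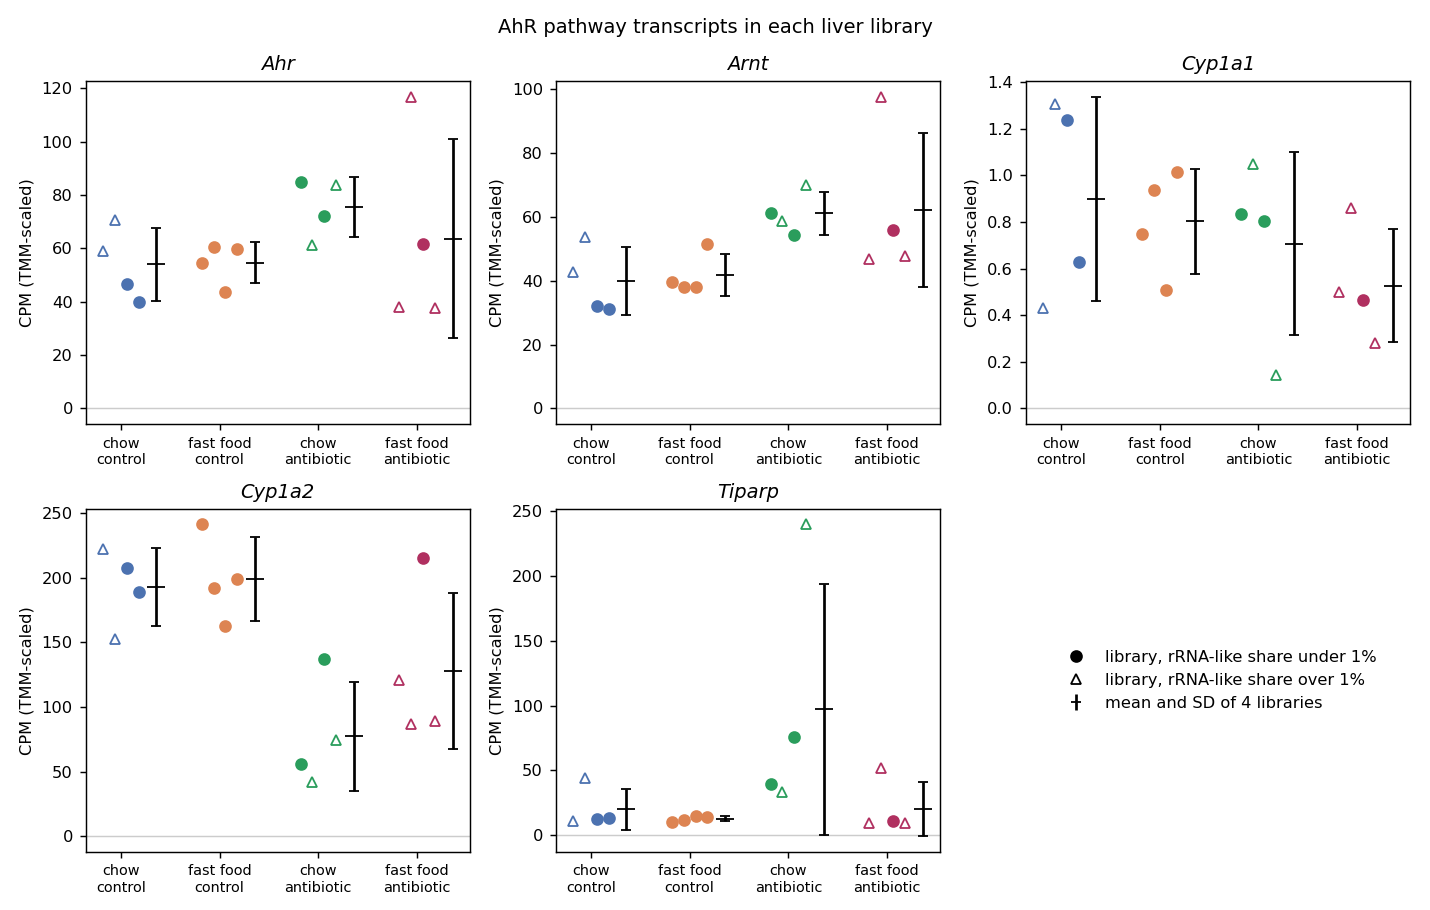
Level of each member in each library (vertical axes: TMM-scaled CPM, linear scale; horizontal axis: group), with filled circles for libraries under 1% of rRNA-like counts, open triangles for those above, and the mean and SD of 4 libraries beside each group. Cyp1a2 was at most 137 CPM in the 4 libraries of chow with antibiotic water and at least 152 CPM in the libraries on control water, while Tiparp spanned 33.3 to 239.6 CPM in chow with antibiotic water.

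Ahr encodes the receptor itself. In chow with control water its 4 libraries read 59.1, 70.7, 46.5 and 39.9 CPM, and in fast food with control water 54.4, 60.5, 43.7 and 59.9 CPM. Chow with antibiotic water gave 84.9, 61.2, 72.2 and 83.8 CPM, and fast food with antibiotic water gave 37.9, 117, 61.8 and 37.6 CPM. All 4 groups overlapped with their neighbours in the order of means, which ran from chow with antibiotic water (75.5 ± 11.1) through fast food with antibiotic water (63.5 ± 37.3) to the control water groups (54.6 ± 7.78 and 54.1 ± 13.6). The widest spread was in fast food with antibiotic water, where replicate 2 was the highest of all 16 libraries. Antibiotic against control water after chow gave a log2 fold change of 0.48 ± 0.30 (SE; 95% interval -0.16 to 1.13; adjusted p = 0.262 by edgeR's quasi-likelihood test). In a fit to the 9 libraries of low rRNA-like share, the same contrast gave 0.87 from 2 against 2 chow libraries. That fit held 1 library of fast food with antibiotic water, so only the effect size is given. In a fit to the 7 libraries of high share the contrast gave 0.17 (adjusted p = 0.9), also from 2 against 2 chow libraries. After fast food the log2 fold change of antibiotic water was 0.22 ± 0.30 (adjusted p = 0.684). The meal gave 0.02 ± 0.30 in control water (adjusted p = 0.992) and -0.25 ± 0.30 in antibiotic water (adjusted p = 0.617). Without fast food with antibiotic water replicate 2, the last value became -0.72 and passed the test (adjusted p = 0.0204).

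Arnt encodes the partner that the receptor needs for DNA binding, which also serves the hypoxia-inducible factors. It read 42.8, 53.8, 32.0 and 31.2 CPM in chow with control water and 39.8, 38.1, 38.0 and 51.5 CPM in fast food with control water. On antibiotic water it read 61.4, 58.7, 54.3 and 70.2 CPM after chow, and 47.0, 97.7, 56.0 and 47.7 CPM after fast food. The chow groups did not overlap between waters, although the nearest libraries were 53.8 and 54.3 CPM; over all genes, 24.8% did not overlap in this comparison. After fast food the groups overlapped through replicate 4 on control water. Arnt differed among the 4 groups (adjusted p = 0.0446 over all genes by edgeR; 32.6% of tested genes passed). Its pairwise differences did not pass: 0.61 ± 0.22 after chow (log2; 95% interval 0.14 to 1.08; adjusted p = 0.0543) and 0.57 ± 0.22 after fast food (95% interval 0.10 to 1.04; adjusted p = 0.119). The after-chow value lay near the threshold. It passed without chow with control water replicate 2 (0.79, adjusted p = 0.0186) and with DESeq2 (0.63, adjusted p = 0.0309). Within libraries of low rRNA-like share it was 0.88, and within those of high share 0.43 (adjusted p = 0.558), each from 2 against 2 libraries. These splits were made after seeing the data. The low-share libraries leave out chow with control water replicate 2, the highest for Arnt in its group. The meal moved Arnt by 0.07 ± 0.22 in control water (95% interval -0.40 to 0.54; adjusted p = 0.941) and 0.03 ± 0.22 in antibiotic water (95% interval -0.44 to 0.49; adjusted p = 0.954).

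Cyp1a1, the inducible enzyme most used as a readout of receptor activity, was barely detected, with 1 to 25 counts per library. Its levels were 0.429, 1.30, 1.24 and 0.627 CPM in chow with control water and 0.749, 0.935, 0.510 and 1.02 CPM in fast food with control water. With antibiotic water they were 0.833, 1.05, 0.803 and 0.142 CPM after chow, and 0.498, 0.861, 0.464 and 0.283 CPM after fast food. The order of means followed the same sequence, from 0.900 ± 0.438 to 0.526 ± 0.242 CPM, and every pair of neighbouring groups overlapped. No contrast passed: antibiotic water gave log2 fold changes of -0.30 ± 0.45 after chow (95% interval -1.24 to 0.65; adjusted p = 0.664) and -0.58 ± 0.46 after fast food (95% interval -1.56 to 0.39; adjusted p = 0.452). The meal gave -0.20 ± 0.43 in control water (95% interval -1.10 to 0.70; adjusted p = 0.91) and -0.48 ± 0.48 in antibiotic water (95% interval -1.50 to 0.53; adjusted p = 0.526). At these counts, changes within such intervals were not detectable. Of the 50-base words of its transcripts, 3.43% also occur in Cyp1a2, and 4.79% of those of Cyp1a2 occur in Cyp1a1. Reads of the far more abundant neighbour (475 to 4510 counts per library) could thus have been assigned to either gene or dropped. This depends on the submitters' handling of reads that match both, and its part in the Cyp1a1 counts was not tested.

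Cyp1a2, the constitutive CYP1A enzyme of hepatocytes around the central vein, which oxidizes caffeine and aromatic amines, was the member with the clearest difference. In chow with control water it read 222, 152, 208 and 189 CPM, and in fast food with control water 241, 192, 163 and 199 CPM. In chow with antibiotic water it read 56.0, 41.6, 137 and 74.3 CPM. Replicate 3 was the highest of that group, but still below the lowest library on control water. In fast food with antibiotic water it read 120.5, 86.5, 215 and 89.1 CPM, so that replicate 3 lay within the control range and the other 3 below it.

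Group means of Cyp1a2 were 199 ± 32.3 CPM for fast food with control water, 193 ± 30.1 for chow with control water, 128 ± 60.4 for fast food with antibiotic water and 77.3 ± 42.2 for chow with antibiotic water. Neighbours in this order overlapped, but chow with control water and chow with antibiotic water, which are not neighbours in it, did not. After chow, Cyp1a2 was 2.49-fold lower with antibiotic water (log2 fold change -1.32 ± 0.34, adjusted p = 0.0128), with 4 of 4 libraries below every chow library on control water. The call held in each of the 8 fits without 1 library, with log2 fold changes from -1.75 to -1.10 and adjusted p from 0.00151 to 0.0406. Within libraries of low rRNA-like share the log2 fold change was -1.03 (adjusted p = 0.113, 2 against 2 libraries), and within those of high share -1.68 (adjusted p = 0.0921, 2 against 2). After fast food the difference was -0.63 ± 0.34 (95% interval -1.36 to 0.09; adjusted p = 0.249). It was 0.11 within libraries of low share, where fast food with antibiotic water had 1 library, assumed to vary like the other groups.

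The meal changed Cyp1a2 by 0.04 ± 0.34 in control water (log2; 95% interval -0.67 to 0.76; adjusted p = 0.977) and by 0.73 ± 0.34 in antibiotic water (95% interval 0.0013 to 1.45; adjusted p = 0.164). The latter passed without chow with antibiotic water replicate 3 (1.16, adjusted p = 0.0247). The difference between the meal effects in the 2 waters was 0.68 ± 0.48 (adjusted p = 0.442), so the fall after chow was not shown to differ from that after fast food.

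Marker genes of liver cell types were read beside Cyp1a2. Over all tested genes, antibiotic water called 10.6% higher and 13.2% lower after chow, and 5.99% in either direction after fast food. Of 5 hepatocyte markers, 3 rose with antibiotic water after chow (Alb by 0.88 on the log2 scale), and their summed level was 84354 to 114609 CPM in chow with control water and 130791 to 192511 CPM in chow with antibiotic water. Of 12 markers of pericentral hepatocytes, 3 rose (Slc1a2, Rhbg, Gulo) and 2 fell (Tbx3 among them) in that contrast. Their summed level overlapped, at 8356 to 11497 CPM with control water and 8378 to 11436 CPM with antibiotic water, and none was at 0 in any library. Cyp2e1, also among the hepatocyte markers, made up most of that sum (6629 ± 880 and 6018 ± 1120 CPM). The sum thus mainly followed that gene and does not show the level of the other markers. Of 6 Kupffer cell markers, which mark the liver's resident macrophages, 5 fell with antibiotic water after chow and 4 after fast food; their part in the members' differences was not tested. In bulk tissue, fewer cells of a type and less RNA per cell cannot be told apart.

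Tiparp, the ADP-ribosyltransferase that feeds back on the receptor, was the most variable member. It read 11.2, 43.9, 12.7 and 13.3 CPM in chow with control water and 10.5, 11.9, 15.2 and 14.4 CPM in fast food with control water. With antibiotic water it read 39.9, 33.3, 75.7 and 239.6 CPM after chow and 9.55, 52.0, 10.9 and 9.43 CPM after fast food. Thus all 4 libraries of chow with antibiotic water were high, together with replicate 2 of chow with control water and replicate 2 of fast food with antibiotic water. The chow groups overlapped because chow with control water replicate 2 exceeded 2 libraries of the antibiotic group.

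Mean Tiparp was 97.1 ± 96.8 CPM in chow with antibiotic water, 20.5 ± 21.02 in fast food with antibiotic water, 20.3 ± 15.8 in chow with control water and 13.0 ± 2.16 in fast food with control water, and neighbours in this order overlapped. After chow, Tiparp was 4.75-fold higher with antibiotic water (log2 fold change 2.25 ± 0.75, adjusted p = 0.046). The call rested on single libraries. Without chow with antibiotic water replicate 4 the log2 fold change was 1.32 (adjusted p = 0.169). The call was also lost without chow with antibiotic water replicate 3 (adjusted p = 0.0624) and without chow with control water replicate 1, 3 or 4 (adjusted p = 0.112, 0.118 and 0.109). Without the 3 libraries of highest acute phase level (by mean log2 deviation of 8 genes) the difference was 2.02 (adjusted p = 6.68e-05). These 3 libraries were also the highest for Tiparp in their groups, so leaving them out narrowed the spread of Tiparp itself. That p is therefore no separate support for the call. The difference between waters after chow was 2.16 within libraries of low rRNA-like share and 2.30 within those of high share (adjusted p = 0.408), each from 2 against 2 libraries.

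After fast food, Tiparp differed by 0.66 ± 0.74 between waters (log2; 95% interval -0.94 to 2.26; adjusted p = 0.612). The meal gave -0.64 ± 0.74 in control water (adjusted p = 0.818). In antibiotic water fast food gave -2.23 ± 0.75 against chow (95% interval -3.86 to -0.60), which missed the threshold in edgeR (adjusted p = 0.0658) and passed it in DESeq2 (-2.26, adjusted p = 0.0166). Without fast food with antibiotic water replicate 2 it was -3.28 (adjusted p = 0.0097), and within libraries of low rRNA-like share -2.42 (adjusted p = 0.00792). In that last fit fast food with antibiotic water had 1 library, assumed to vary like the other groups, so its p carries no spread of that group. The meal by water interaction was -1.59 ± 1.04 (adjusted p = 0.412). The meal contrast in antibiotic water and the water contrast after chow share the chow with antibiotic water libraries, so these values are not independent of each other. An antisense pseudogene, 4931440P22Rik, overlaps 223 exon bases of Tiparp. Whether counting used strand is not given in the sources used here, and reads in that overlap cannot be told apart without it.

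Immediate early genes, which are switched on within minutes by many stimuli, moved with Tiparp. Antibiotic water after chow, which called 10.6% of all genes higher, raised 9 of 13 such genes. Fast food in antibiotic water, which called 13.7% of all genes, lowered 5 of these 13. Their summed level was 506 to 1392 CPM in chow with antibiotic water. It was 605 CPM in chow with control water replicate 2 against 127 to 140 CPM in the other 3 libraries of that group, and 481 CPM in fast food with antibiotic water replicate 2 against 111 to 206 CPM in the other 3. Fast food with control water lay between 129 and 204 CPM. Of 8 acute phase genes, 2 rose after chow with antibiotic water (Itih3, Cp), and their summed level reached 22061 CPM in replicate 4, the library with the highest Tiparp. Neutrophil markers summed to 73.3 CPM in that library and to between 0.377 and 9.20 CPM in the other 15; the part of these genes and cells in the Tiparp result was not tested.

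**Figure D2:**
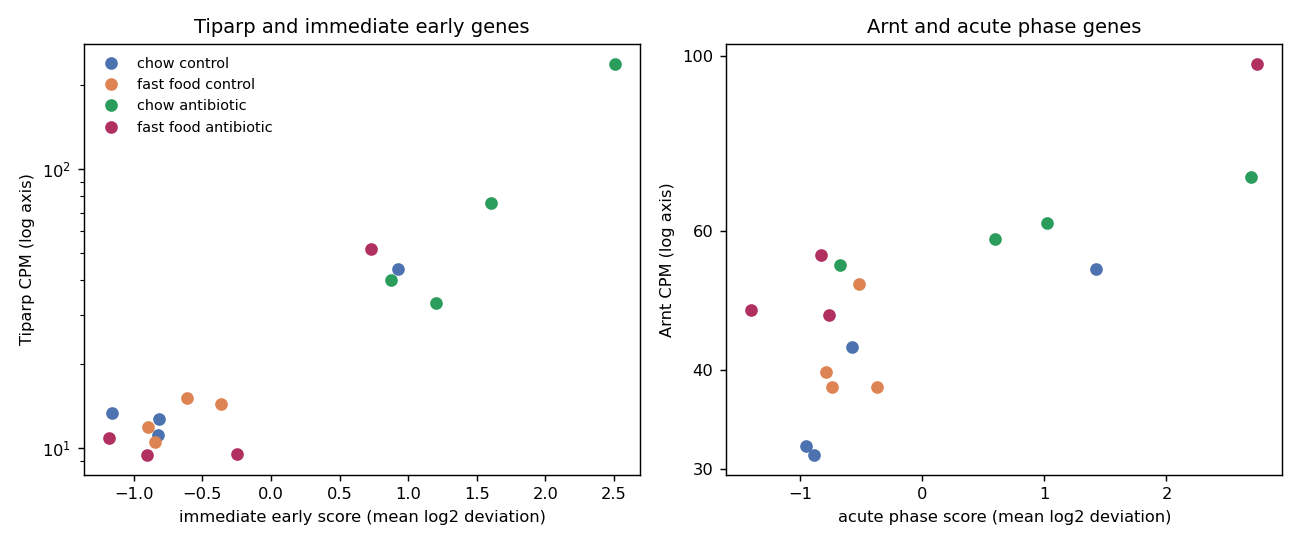
Left: Tiparp (CPM, log axis) against the mean log2 deviation of 13 immediate early genes; right: Arnt (CPM, log axis) against the mean log2 deviation of 8 acute phase genes. Each point is 1 library and colours are groups; the 4 libraries of chow with antibiotic water had immediate early scores from 0.871 to 2.51, and chow with control water replicate 2 (0.929) and fast food with antibiotic water replicate 2 (0.727) lay with them.

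Counted over the pathway, antibiotic water after chow called 2 of 5 members, where 23.8% of all tested genes were called. Cyp1a2 was among the 13.2% of all genes called lower and Tiparp among the 10.6% called higher. Arnt and Cyp1a2 were the 2 members whose groups did not overlap, beside 24.8% of all genes. The meal in control water called 0 of 5 members (0.577% of all genes), with 0 not overlapping (10.3%). The meal in antibiotic water called 0 of 5 (13.7%), with 0 not overlapping (14.5%). Water after fast food also called 0 of 5 (5.99%), with 0 not overlapping (18.4%), and the interaction called 0 of 5 (3.94%). At an unadjusted p under 0.05 the meal in control water held 0 members (11.5% of all genes), the meal in antibiotic water 2 (30.4%), water after fast food 1 (26%) and the interaction 0 (21.1%). DESeq2 called 0, 1, 0 and 0 members in these 4 contrasts. The share of all genes called by DESeq2 is not given here, for the members or for the other lists. After chow, 3 members had an unadjusted p under 0.05, beside 36.7% of all genes. Over any difference among the 4 groups, 3 members were called (Arnt, Cyp1a2, Tiparp), beside 32.6% of all genes; Cyp1a2 had an adjusted p of 0.0231 and Tiparp one of 0.0221. None of the 3 was called there without chow with antibiotic water replicate 4, and without replicate 1 of that group Tiparp was the 1 member called. Arnt lost this call in 11 of the 16 fits without 1 library, and Cyp1a2 in the 2 fits just named.

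**Figure D3:**
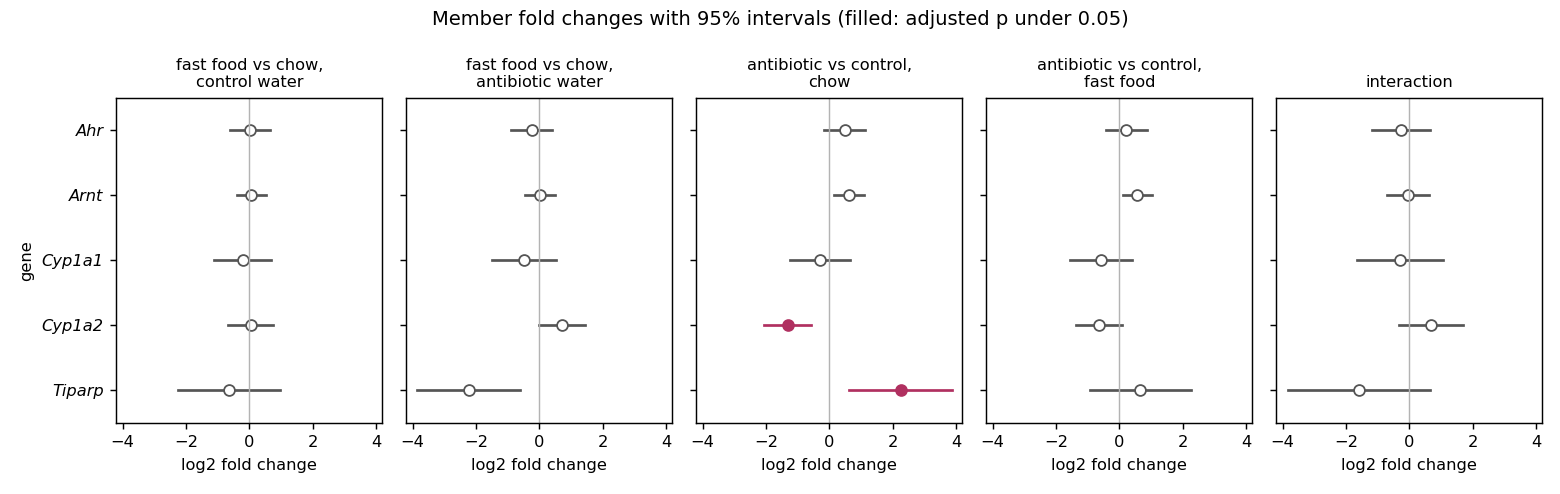
Log2 fold change of each member with its 95% interval in the 4 pairwise comparisons and the interaction (linear axes; filled points passed an adjusted p of 0.05). Cyp1a2 at -1.32 and Tiparp at 2.25 after chow were the 2 that passed; the intervals of Tiparp were the widest.

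**Figure D4:**
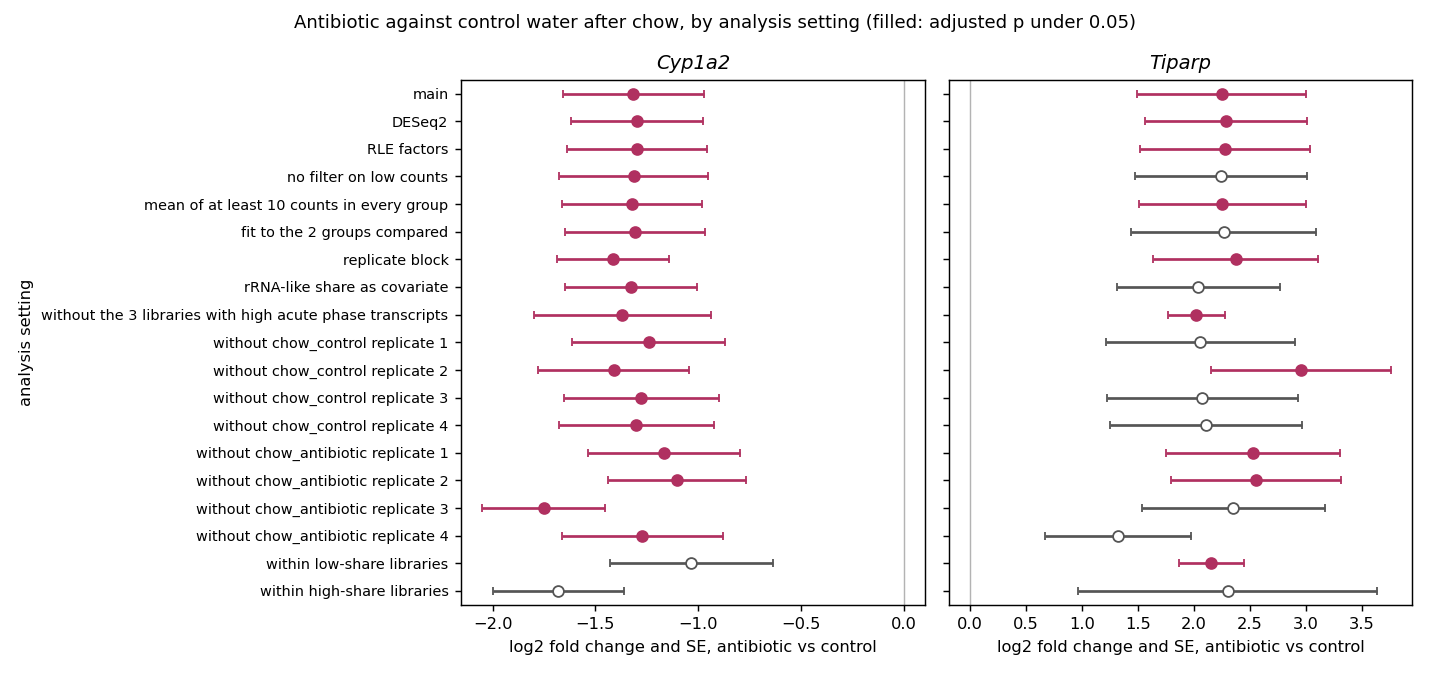
Log2 fold change and SE of Cyp1a2 and Tiparp between antibiotic and control water after chow, for each way of processing (vertical axis: setting; filled points passed an adjusted p of 0.05). Cyp1a2 passed except within the low-share and high-share libraries alone, whereas the Tiparp value without chow with antibiotic water replicate 4 fell to 1.32.

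Of 11 listed partners, chaperones and cofactors of the receptor, 9 were tested. After chow, antibiotic water called 4 of them, 3 higher and 1 lower, beside 10.6% and 13.2% of all genes. Antibiotic water after chow lowered Hsp90aa1, a chaperone of the unliganded receptor, by 1.33 on the log2 scale (SE 0.27, adjusted p = 0.00272; 75.9 ± 26.3 to 30.3 ± 10.2 CPM). Hsp90ab1, the more abundant HSP90 gene of the list, was not called there (732 ± 171 to 534 ± 34.5 CPM). The coactivators Ncoa2 (0.44 ± 0.14) and Ncoa3 (0.41 ± 0.12) and the ubiquitin ligase scaffold Cul4b (0.51 ± 0.10) rose in that contrast. The 9 genes had a median log2 fold change of 0.15, against -0.01 over all genes. The call of Ncoa2 was lost in 4 of 8 fits without 1 library (adjusted p up to 0.118) and that of Ncoa3 in 3 (adjusted p up to 0.0748). After fast food, Ncoa2 rose with antibiotic water (0.60 ± 0.14, adjusted p = 0.029), a call lost in 5 of 8 fits without 1 library (adjusted p up to 0.0933). By edgeR no gene of the list passed for the meal in control or antibiotic water, beside 0.577% and 13.7% of all genes. At an unadjusted p under 0.05 there were 1 and 2, beside 11.5% and 30.4% of all genes. DESeq2 called 0 and 1. The interaction called Cul4b (-0.55 ± 0.14, adjusted p = 0.0422), which was lost in 12 of 16 fits without 1 library (adjusted p up to 0.0892). The receptor repressor Ahrr had 0 to 10 counts per library and Arnt2 at most 3, and neither was tested.

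Of 14 further genes listed as receptor targets, 10 could be tested. With antibiotic water after chow 4 rose and 0 fell, beside 10.6% and 13.2% of all genes. Of the 4 that rose, 3 are described here. Cyp1b1, a relative of the CYP1A enzymes expressed mainly outside the liver, rose from 1.498 ± 0.326 to 3.08 ± 0.65 CPM (1.05 ± 0.27, adjusted p = 0.0107). Ugt1a6b, a glucuronosyltransferase, rose by 0.58 ± 0.14 on the log2 scale (adjusted p = 0.00695). Nqo1, a quinone reductase also controlled by NRF2, rose from 10.6 ± 1.19 to 14.8 ± 1.52 CPM (0.47 ± 0.15, adjusted p = 0.0306), a call lost in 5 of 8 fits without 1 library (adjusted p up to 0.0732, without chow with control water replicate 1). Cyp1a2 fell in the contrast in which these 3 rose. The list median was 0.21, beside -0.01 for all genes.

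The targets were also read for the meal. In control water 1 of 10 was called higher, where 0.577% of all genes were called, and 7 had an unadjusted p under 0.05 (11.5% of all genes). Their log2 fold change was above 0 in 8 of 10, with a median of 0.41 beside -0.02 for all genes, and DESeq2 called 1. In antibiotic water, fast food called 2 of 10 targets, beside 13.7% of all genes. Nqo1 was among them and fell (-0.57 ± 0.15, adjusted p = 0.0203), a call lost in 2 of 8 fits without 1 library (adjusted p up to 0.057). The target called in control water was Cd36, a fatty acid transporter, which rose from 67.5 ± 11.3 to 127 ± 11.6 CPM (0.91 ± 0.20, adjusted p = 0.0488), a call lost in each of the 8 fits without 1 library (adjusted p from 0.0562 to 0.157). After fast food, antibiotic water called 0 of 10 targets by edgeR (5.99% of all genes). At an unadjusted p under 0.05 there were 4 (26% of all genes), and DESeq2 called 2. The interaction called 1 of 10 (3.94% of all genes). Aldh3a1, another classical target, had at most 2 counts in any library, Scin at most 1 and Gsta1 at most 11, and these were not tested.

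Enzymes of tryptophan breakdown, whose products include receptor ligands, changed in both directions with antibiotic water after chow. Of 14 tested, 6 rose and 4 fell, beside 10.6% and 13.2% of all genes. Tdo2, the liver's first step of the kynurenine route, rose from 2830 ± 599 to 4821 ± 747 CPM (a log2 change of 0.77 ± 0.16, with adjusted p = 0.00303). Ido2, a related dioxygenase, fell from 28.9 ± 4.99 to 15.5 ± 2.85 CPM (-0.89 ± 0.15, adjusted p = 0.000643). Of the kynurenine aminotransferases, Kyat3 rose by 0.86 ± 0.12 (adjusted p = 0.00015) and Kyat1 fell by 1.16 on the log2 scale (SE 0.16, adjusted p = 0.000191). These 4 calls held in every fit without 1 library. Fast food in antibiotic water moved Ido2 and Tdo2 the other way (1.00 ± 0.15, adjusted p = 0.00129, and -0.50 ± 0.16, adjusted p = 0.0487), again against the shared chow with antibiotic water libraries. In that contrast Kmo rose (0.42 ± 0.13, adjusted p = 0.0463) and Maoa fell (-0.77 ± 0.21, adjusted p = 0.0248). The calls of Tdo2, Kmo and Maoa there were lost in 5, 6 and 4 of 8 fits without 1 library, with adjusted p up to 0.141, 0.135 and 0.0829. The interaction was called for Ido2 (1.03 ± 0.21, adjusted p = 0.0152), also in every fit without 1 library, and for Afmid (-0.64 ± 0.16, adjusted p = 0.0391), which was lost in 10 of 16. By edgeR 0 of 14 passed for the meal in control water and for water after fast food, beside 0.577% and 5.99% of all genes. At an unadjusted p under 0.05 these had 6 and 5 genes, beside 11.5% and 26% of all genes. DESeq2 called 2 in each. Ido1 had at most 1 count and Il4i1 at most 8.

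**Figure D5:**
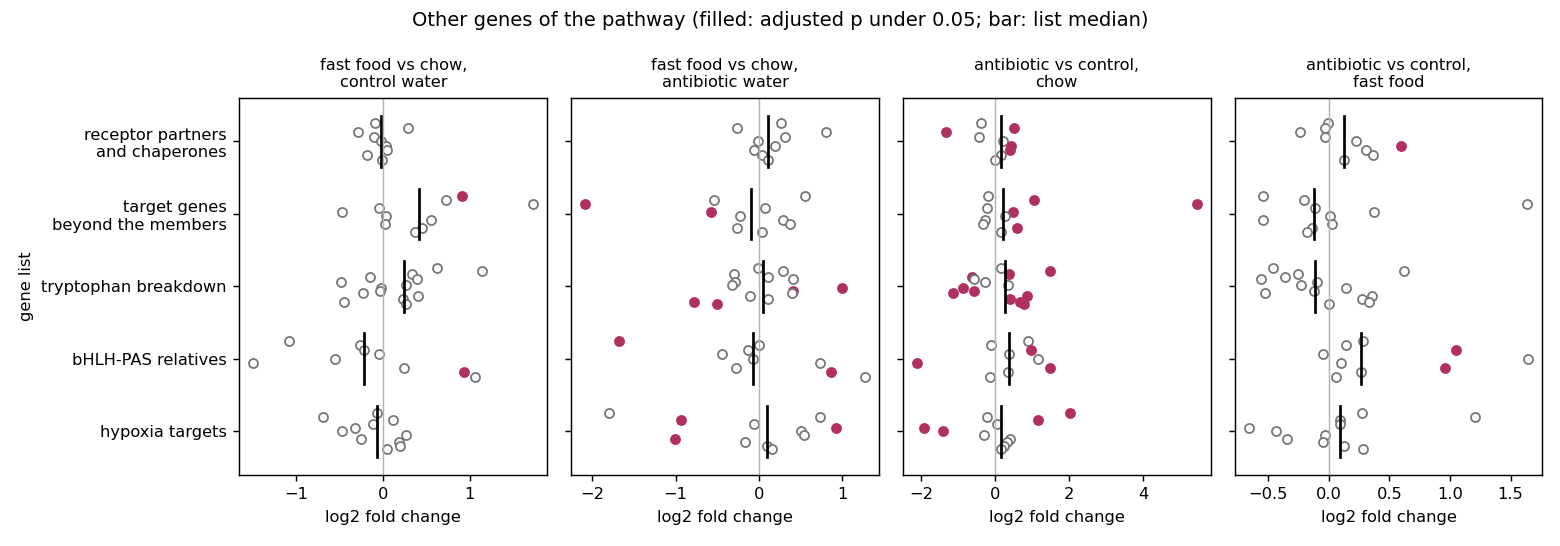
Log2 fold changes of the tested genes of 5 other lists around the pathway in the 4 pairwise comparisons (each panel has its own linear axis; filled points passed an adjusted p of 0.05; bars are list medians). Antibiotic water after chow held the most filled points, on both sides of 0 for 4 of the 5 lists.

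Listed relatives of the receptor were mixed. They belong to the basic helix-loop-helix PAS family or, for the Per genes, share its PAS domain. Antibiotic water after chow raised Per1, a clock repressor (1.47 ± 0.24, adjusted p = 0.000544), and Epas1, the hypoxia factor that also pairs with ARNT (132 ± 49.6 to 256 ± 55.1 CPM; 0.96 ± 0.28, adjusted p = 0.0241). It lowered Npas2, a clock activator near the limit of detection (-2.12 ± 0.72, adjusted p = 0.0409). In this contrast 3 of 9 tested relatives were called, beside 23.8% of all genes. The Epas1 call was lost in 3 of 8 fits without 1 library (adjusted p up to 0.0718) and the Npas2 call in 7 (adjusted p up to 0.106). After fast food, antibiotic water raised Epas1 (1.05 ± 0.28, adjusted p = 0.0442) and Per1 (0.96 ± 0.23, adjusted p = 0.0309), calls lost in 6 and 5 of 8 fits without 1 library (adjusted p up to 0.124 and 0.0929). Fast food raised Per2 in control water (0.93 ± 0.17, adjusted p = 0.0182) and in antibiotic water (0.86 ± 0.17, adjusted p = 0.00554). The first of these was lost in 5 of 8 fits without 1 library (adjusted p up to 0.078). Fast food lowered Arntl in antibiotic water (-1.68 ± 0.45, adjusted p = 0.0263), which was lost in 3 of 8 such fits (adjusted p up to 0.0829). Hif1a, the main ARNT partner in hypoxia, gave 0.36 ± 0.21 after chow (adjusted p = 0.231). No relative was called for the interaction by edgeR (3.94% of all genes) or DESeq2. At an unadjusted p under 0.05 there was 1, beside 21.1% of all genes.

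Hypoxia targets, which depend on ARNT through the hypoxia factors, were also mixed. With antibiotic water after chow, 2 of 11 tested were higher and 2 lower, beside 10.6% and 13.2% of all genes. Bnip3, a mitophagy receptor, rose from 139 ± 25.4 to 311 ± 39.1 CPM (1.16 ± 0.17, adjusted p = 0.000208). Egln3, an oxygen-sensing hydroxylase, fell by 1.92 on the log2 scale (SE 0.28, adjusted p = 0.000219), and Ldha, lactate dehydrogenase, fell by 1.42 (SE 0.29, adjusted p = 0.00257). Adm, the adrenomedullin gene, rose by 2.01 ± 0.64 (adjusted p = 0.0342), but by 0.65 without chow with antibiotic water replicate 4 (adjusted p = 0.165). Its call was also lost without chow with control water replicate 1, 3 or 4 (adjusted p = 0.0794, 0.0749 and 0.0871), so in 4 of 8 fits without 1 library. Fast food in antibiotic water lowered Bnip3 (-0.94 ± 0.17, adjusted p = 0.00394) and Pdk1 (-1.01 ± 0.25, adjusted p = 0.0175) and raised Egln3 (0.93 ± 0.28, adjusted p = 0.0389). The Pdk1 call was lost in 1 of 8 fits without 1 library (fast food with antibiotic water replicate 4, adjusted p = 0.0574) and the Egln3 call in 6 (adjusted p up to 0.143). The interaction was called for Bnip3 (-1.06 ± 0.23, adjusted p = 0.0222), a call lost in 2 of 16 fits without 1 library (adjusted p up to 0.0541). By edgeR 0 of 11 passed for the meal in control water and for water after fast food, beside 0.577% and 5.99% of all genes. At an unadjusted p under 0.05 these had 0 and 2 genes, beside 11.5% and 26% of all genes. DESeq2 called 0 in both. Car9 had at most 4 counts.

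For each member, the 3 genes of most similar pattern were sought by Pearson correlation of log2 CPM over the 16 libraries, which share depth and composition with the members. Tiparp was closest to Ptpn2 (r = 0.970), a tyrosine phosphatase, Csrnp1 (0.967) and Il1r2 (0.965), a decoy receptor for interleukin 1. By Spearman correlation these were lower, at 0.726, 0.653 and 0.826. Ptpn2 read 112 CPM in chow with antibiotic water replicate 4, against 30.6 to 36.5 in the other 3 libraries of that group. Il1r2 had few counts, with 79 in that library against 6 to 12 in the other 3, so its r leans on that library. Cyp1a2 was closest to Sult2a8 (r = 0.943), a sulfotransferase, Vnn1 (0.938), a pantetheinase, and Slco1a1 (0.938), an organic anion transporter. Vnn1 read 112 to 204 CPM in chow with control water and 7.44 to 39.5 CPM in chow with antibiotic water, with replicate 3 the highest there, as for Cyp1a2. Arnt was closest to Srsf11 (r = 0.969), a splicing factor, Son (0.957) and Arhgef26 (0.947), and Ahr to Lin7c (0.911), Ppp3r1 (0.905) and Ddx3y (0.884). Cyp1a1, with its few counts, was closest to Tmem18 (0.846), Taf1c (0.816) and Dusp6 (0.815).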

How the data were processed

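Liver RNA of 16 mouse samples was measured by RNA-seq. The authors deposited whole-number counts of reads per Ensembl gene, not normalized; per the submitters' processing notes, FastQC, cutadapt, STAR, HTSeq, DESeq2 and edgeR and the build GRCm38.p6 were used, with versions and settings, including strand, not given in the sources used here. Groups come from the sample titles. The 5 members and all gene lists were chosen with earlier results of these data known. Symbols came from the reference tables for 24942 of 25006 gene IDs.

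The main test was edgeR 4.0.16 in R 4.3.3: TMM factors, filterByExpr with a minimum count of 10, robust quasi-likelihood fit of 4 group means over all 16 libraries, and Benjamini-Hochberg adjustment over 13180 genes at 0.05. SE is the log2 fold change divided by the root of F; the common biological coefficient of variation was 0.222. The fit was tested on simulated counts. Alternatives were DESeq2 1.42.0, RLE factors, other filters, fits to 2 groups, a replicate block, the rRNA-like share as a covariate, and leaving libraries out. Fits within low-share and high-share libraries, and the alternatives for genes of the other lists, were added after seeing the data. Depth was 8954378 to 18954655 counts per library, so genes with few counts, such as Cyp1a1, are imprecise. No 2 libraries were identical. Of each other list, the text names up to 4 called genes of lowest p per comparison, and Ahrr, Cyp1b1, Nqo1, Aldh3a1, Tdo2 and Hif1a, except a few genes that are counted in their lists but not reported here; likeness names the 3 tested genes of highest Pearson r of log2 CPM (prior count 2). Marker genes, Hsp90ab1, other genes of low count and the values of likeness genes were named after their values were seen. RefSeq promoters were searched on both strands.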

Additional observations from a re-analysis of the deposited data

Results flagged for a closer look

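In each of 20 sets of 4 libraries (5 members in 4 groups), the highest and lowest library were compared with the rest of their set. A library stood apart in 3 of them. The rule marks about 1 set in 20 by chance only where sets are independent and values follow a normal distribution. Here the 5 members were read from the same 16 libraries, so the 3 sets cannot be weighed against that rate. Tiparp in chow with control water replicate 2 was 43.9 CPM, against 13.3 CPM in the nearest library of its group. Tiparp in fast food with antibiotic water replicate 2 was 52.0 CPM, against 10.9 CPM in the nearest. Arnt in fast food with control water replicate 4 was 51.5 CPM, against 39.8 CPM in the nearest.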

How the results depend on the processing

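The main settings called 2 members for water after chow, 0 for each meal contrast, water after fast food and the interaction, and 3 for any difference. For water after chow the count was 1 with no filter on low counts and 1 with a covariate for that share of rRNA-like counts (Cyp1a2 in both), 3 with DESeq2 (Arnt, Cyp1a2, Tiparp), 3 within low-share libraries (Ahr, Arnt, Tiparp, with Cyp1a2 lost), 0 within high-share libraries, 4 without the 3 libraries of highest acute phase level (Ahr, Arnt, Cyp1a2, Tiparp), and 1 to 3 without 1 library. For the meal in antibiotic water it was 1 with DESeq2 and 1 within low-share libraries (Tiparp in both), 2 without the 3 libraries (Ahr, Tiparp), and 0 to 2 without 1 library. The interaction called 1 member within low-share libraries (Tiparp) and 2 without the 3 libraries (Ahr, Tiparp). Any difference called 0 to 4 members without 1 library. The share of all genes called in these other settings is not given here. A rise in the members called can therefore not be read as particular to the pathway. The cause of these shifts was not tested. Fits within shares use fewer samples. The 3 libraries of highest acute phase level were also the highest for Tiparp and for Arnt in their groups. For Ahr this held for chow with control water replicate 2 and fast food with antibiotic water replicate 2. Fits without the 3 libraries thus have less spread of Tiparp and lack high values of Arnt and Ahr. Their calls of these members are therefore no separate support. In the low-share fits, fast food with antibiotic water is 1 library assumed to vary like the other groups, so the calls of Tiparp there for the meal and the interaction have no replicate check in that arm.

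The labels do not say whether replicate numbers pair the libraries. The 24 correlations of same-numbered deviations lay between -0.22 and 0.36, and 3 were over 0.1. These values cannot show whether same-numbered libraries were handled together. With a replicate block, water after chow called 3 members (Arnt, Cyp1a2, Tiparp; Cyp1a2 -1.42, adjusted p = 0.00331), and Arnt for the meal in antibiotic water was -0.018.

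Of the 19 calls that the naming rule took from other lists for water after chow, 13 held in every fit without 1 library, and 0 passed within high-share libraries. Without 1 library, 3 of 11 held for the meal in antibiotic water, 1 of 5 for the interaction, 0 of 2 for the meal in control water and 0 of 3 for water after fast food.

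The member values that changed sign were uncalled in the main settings. With the covariate, Cyp1a2 for the meal in control water was -0.19, Arnt for the meal in antibiotic water -0.041 and Tiparp for water after fast food -0.060. Without the 3 libraries, the meal in control water gave Cyp1a1 0.0020, Cyp1a2 -0.039 and Tiparp 0.074. The meal in antibiotic water gave Arnt -0.24, water after chow gave Cyp1a1 0.15, and water after fast food gave Ahr -0.27 and Tiparp -0.40. Within low-share libraries Arnt for the meal in antibiotic water was -0.058 (-0.024 within high-share libraries), and water after fast food gave Cyp1a2 0.11 and Tiparp -0.26. Without 1 library, ranges crossing 0 for the meal in control water were Ahr -0.087 to 0.17, Arnt -0.046 to 0.25, Cyp1a1 -0.38 to 0.0018, Cyp1a2 -0.061 to 0.13 and Tiparp -0.83 to 0.063. For the meal in antibiotic water Arnt ranged from -0.29 to 0.14, and for the interaction from -0.36 to 0.071. For water after fast food Ahr ranged from -0.26 to 0.40 and Tiparp from -0.39 to 0.90. The direction of Cyp1a2 (lower) and Tiparp (higher) for water after chow held in every setting run.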
